A study of Danio rerio with 16 samples.

Results

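The proteasome is the barrel-shaped protease that degrades proteins tagged with ubiquitin. Its core particle is built from rings of alpha subunits, which gate the entrance, and rings of beta subunits, some of which carry the proteolytic sites. The regulatory particle caps the core: its ATPases unfold substrates and its other subunits bind, deubiquitinate and hold them. Other activators can take the place of that cap, and dedicated chaperones assemble the parts. In heart muscle the proteasome turns over damaged and contractile proteins, and immune signals can exchange catalytic beta subunits for inducible ones, giving the immunoproteasome.

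The genes described here are the constitutive proteasome genes, chosen by name. Ensembl identifiers were translated to zebrafish symbols, symbols starting with psma to psmg and a number were kept, and the inducible psmb8, psmb9, psmb12 and psmb13 were dropped. This left 46 of the 14500 genes in the table, under 43 distinct symbols, since psma6, psmd11 and psme4 each had a pair of identifiers. They comprised 9 core alpha genes, 8 core beta genes, 7 ATPase genes of the regulatory particle (psmc), 10 other regulatory particle genes (psmd), 5 activator genes (psme), 5 assembly chaperone genes (psmd5, psmd9, psmd10, psmg1 and psmg2), the inhibitor gene psmf1 and psme3ip1. The last encodes a protein that binds the activator psme3, is not a subunit and fits the rule by name only. The gene psmb10 stayed in under the rule although in mammals its product is an inducible subunit. The interferon-inducible activator genes psme1 and psme2 stayed in too, so not every member is strictly constitutive. A further 9 identifiers with fitting symbols, among them psma1, psmd2, psmd4 and psmd7, were not among the 14500 genes. The core and regulatory particle genes described here are therefore not complete sets.

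RNA sequencing of polyadenylated RNA was done on the hearts of adult zebrafish, 6 to 9 months old, in a study of telomerase in heart regeneration. There were 4 groups of 4 libraries, each library from 3 pooled hearts: tert mutants (Tert AB/hu3430, labelled KO) after cryoinjury, tert mutants as control, wild-type (WT) fish after cryoinjury and wild-type fish as control. The injured hearts, in which a part of the ventricle is killed by freezing, were taken at 3 days. The labels do not say what control hearts underwent, and a germline allele such as hu3430 is present in every cell, so effects on the heart and on the rest of the fish cannot be told apart.

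Libraries held 5611576 to 14831664 reads over the listed genes, and each member had 0 to 2201 reads per library. A total of 10 members had under 100 reads in at least 1 library, which limits what could be detected for them. Values are normalized signal, in units of the deposited table, and are not divided by gene length, so levels were compared between libraries and not between genes. The heart label fitted the markers: the summed signal of 8 cardiomyocyte genes was 37900 to 52800 in KO cryoinjury, 61000 to 76500 in KO control, 40700 to 43500 in WT cryoinjury and 71700 to 82200 units in WT control libraries. The tert transcript itself was listed at 6.25 to 6.84 units in KO cryoinjury, 5.65 to 6.56 in KO control, 1.99 to 5.16 in WT cryoinjury and 1.19 to 1.97 in WT control libraries. This level is no check of the mutation, which need not remove the transcript. KO cryoinjury libraries 1 and 2 stood apart in epidermal keratin krt5, at 337 and 887 units against 12 and 75.4 in libraries 3 and 4, and results were also computed without them.

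Cryoinjury was accompanied by a broad, modest increase of proteasome transcripts in both genotypes. In KO hearts 34 of 46 members were higher after injury and 1 was lower, where 25.2% of all 14500 genes were called higher and 22.4% lower. In WT hearts 28 members were higher and 1 was lower, where 24.2% of all genes were called higher and 21.7% lower. Calls are limma tests on log2(signal + 1), fitted over all genes, with a Benjamini-Hochberg adjusted p under 0.05. The median member difference was 0.44 in KO and 0.31 in WT on that log2 scale, against medians over all genes of -0.02 in KO and -0.01 in WT. The scale understates changes of low genes.

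The shift was also visible library by library, as each library's median over the members relative to the WT control mean. It was 0.22, 0.28, 0.29 and 0.25 in KO cryoinjury libraries 1 to 4, -0.12, -0.14, -0.09 and -0.09 in KO control, 0.31, 0.27, 0.20 and 0.45 in WT cryoinjury and 0.05, -0.09, 0.10 and -0.01 in WT control libraries. All 8 injured libraries lay above all 8 control libraries, and WT cryoinjury library 4, which was also the deepest library at 14831664 reads, lay highest. Without that library the WT median was 0.24 and 24 members were called in either direction. Over all fits that left out 1 library, 6009 to 6679 of the 14500 genes were called for injury in WT. All 4 libraries of the injured group lay above all 4 controls for 31 members in KO, where 22.1% of all genes did so, and for 26 members in WT, where 22.9% did.

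**Figure D1:**
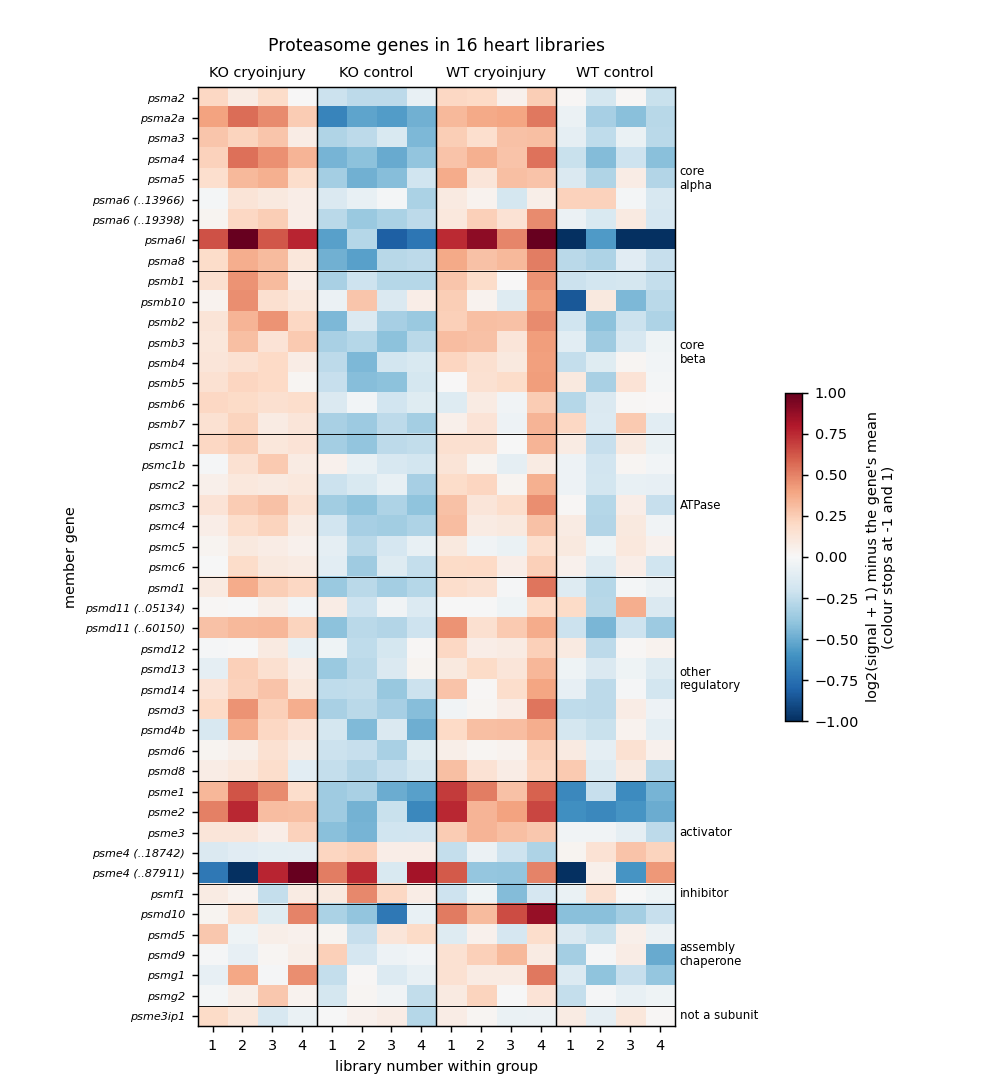
Difference of each member from its own mean over all 16 libraries, on the log2(signal + 1) scale. There is 1 row per gene by role and 1 column per library, from KO cryoinjury at the left to WT control at the right. Core particle and regulatory particle genes are mostly above their mean in the injured libraries, and psme4 (ENSDARG00000018742) is below it in all 8 of them. Taken relative to the WT control mean instead, the medians of the injured libraries are 0.20 to 0.45.

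Other cells enter an injured heart, and in bulk RNA fewer cells of a type cannot be told apart from less RNA per cell. After injury 7 of 8 cardiomyocyte genes were lower in KO and in WT. All 10 macrophage genes measured were higher in both genotypes, with sums of 987 to 1200 units in KO cryoinjury, 334 to 416 in KO control, 1150 to 1410 in WT cryoinjury and 330 to 460 in WT control. These 10 came under 7 names, since mfap4 had several identifiers, and the listed mpeg1.1 and csf1ra had no match. Of the neutrophil genes 5 of 6 were higher in KO and 4 of 6 in WT. Among them lyz was called in neither, at 1.04 in KO (limma adjusted p = 0.314) and -0.68 in WT (limma adjusted p = 0.525). The listed mpx had no match, and mmp13a was not called in WT. The sums of the 6 genes were 347 to 1000 units in KO cryoinjury, 185 to 222 in KO control, 335 to 421 in WT cryoinjury and 205 to 301 in WT control. Much of these sums was srgn, at 240 to 271, 166 to 205, 256 to 316 and 183 to 221 units in the same order. KO cryoinjury library 2 held mmp13a at 212 and mmp9 at 442 units, against 4.45 to 14.2 and 21.7 to 106 in its group's other libraries. WT control library 4 held lyz at 65.6 units, against 0.264 to 1.59 in the other WT controls. The gene mmp13a was at 0 in KO control library 3. All 7 genes of dividing cells were higher in both genotypes, with sums of 185 to 257 units in KO cryoinjury, 37.1 to 42.3 in KO control, 229 to 322 in WT cryoinjury and 33.9 to 82.3 in WT control. All 8 fibroblast and matrix genes were higher in both, with sums of 6580 to 9220 units in KO cryoinjury, 1030 to 1200 in KO control, 6980 to 8840 in WT cryoinjury and 932 to 1930 in WT control. Of 5 epidermal and epithelial genes 2 were higher in KO, and 2 were higher and 1 lower in WT, with sums of 1800 to 3200 units in KO cryoinjury, 994 to 1070 in KO control, 1310 to 1900 in WT cryoinjury and 911 to 1080 in WT control. The keratin gene krt4 was higher by 1.78 in KO (limma adjusted p = 1.71e-07) and krt15 by 0.72 (limma adjusted p = 0.000612). Both were higher in WT too, by 1.45 and 0.46. The gene lower in WT was krt91, by 1.09 (limma adjusted p = 0.000592), and it differed by -0.22 in KO (limma adjusted p = 0.438). The genes krt5 and epcam were called in neither genotype, and epcam was at 0 in at least 1 library. Of 4 endothelial genes 2 were lower in KO and 1 in WT, with sums of 317 to 393 units in KO cryoinjury, 409 to 487 in KO control, 388 to 480 in WT cryoinjury and 461 to 535 in WT control. None of 3 red blood cell genes passed in either genotype. The cardiomyocyte, macrophage, neutrophil, dividing cell, matrix, epithelial and endothelial lists thus held called genes in the same comparisons as the proteasome genes. Of all genes 25.2% were called higher and 22.4% lower in KO, and 24.2% higher and 21.7% lower in WT. At these shares, a few called genes in a list, as for epithelium and endothelium, are not particular to it. The part of these cell types in the proteasome result was not tested.

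The alpha subunits form the outer rings and the gate of the core. After injury 8 of 9 alpha genes were higher in KO and 8 of 9 in WT, with medians of 0.62 in KO and 0.44 in WT. The share of all genes called higher was 25.2% in KO and 24.2% in WT. The largest change among all members was in psma6l, named as a gene like psma6. It read 10.1, 17.1, 10 and 11.1 units in KO cryoinjury libraries and 3.90, 4.85, 3.05 and 3.33 in KO control libraries. In WT it read 11.0, 12.3, 9.03 and 13.7 units after cryoinjury and 1.77, 3.82, 2.06 and 2.53 in controls. No injured library overlapped a control library, and KO cryoinjury library 2 was the highest of its group. The log2 difference was 1.43 in KO (SE 0.20, limma adjusted p = 1.41e-05) and 1.84 in WT (SE 0.20, limma adjusted p = 8.68e-07).

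Another alpha gene, psma2a, read 37.8, 42.2, 39.6 and 34.0 units in KO cryoinjury against 17.6, 19.3, 18.9 and 20 in KO control. In WT it read 35.8, 37.2, 37.6 and 41.2 units after cryoinjury against 27.1, 22.3, 21.0 and 23.2 in controls. The injured groups stood clear of their controls in both genotypes, while the KO controls lay below all WT controls. Its difference was 0.98 in KO (SE 0.09, limma adjusted p = 2.25e-07) and 0.68 in WT (SE 0.09, limma adjusted p = 1.09e-05). The alpha gene psma4 averaged 80.7 ± 7.82 units in KO cryoinjury, 44.6 ± 1.52 in KO control, 79.3 ± 7.02 in WT cryoinjury and 48.8 ± 4.19 in WT control (SD, n = 4 each). It was higher by 0.84 in KO (limma adjusted p = 7.26e-07) and by 0.69 in WT (limma adjusted p = 5.23e-06), with no overlap between injured and control libraries in either genotype. The remaining called alpha genes, psma2, psma3, psma5, psma8 and psma6 (ENSDARG00000019398), differed by 0.32 to 0.63 in KO and by 0.27 to 0.61 in WT. The name psma8 belongs in mammals to an alpha subunit known from testis. The second psma6 identifier, ENSDARG00000013966, was the alpha gene that was called in neither genotype, at 25.9 ± 1.19 units in KO cryoinjury, 22.3 ± 2.00 in KO control, 24.7 ± 2.05 in WT cryoinjury and 26.0 ± 3.55 in WT control (SD, n = 4 each). Its differences were 0.21 in KO (limma adjusted p = 0.103) and -0.07 in WT (limma adjusted p = 0.629).

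The beta rings hold the active sites, carried by psmb5, psmb6 and psmb7. After injury 7 of 8 beta genes were higher in KO and 5 of 8 in WT, with medians of 0.46 in KO and 0.37 in WT. The share of all genes called higher was 25.2% in KO and 24.2% in WT. The structural subunit gene psmb2 read 52.9, 61.1, 66.1 and 55.7 units in KO cryoinjury against 35.1, 43.5, 38.0 and 37.1 in KO control, and 57.0, 59.5, 59.1 and 67.4 units in WT cryoinjury against 41.9, 36.0, 41.4 and 38.6 in WT control. Every injured library was above every control library, and the difference was 0.60 in KO (SE 0.09, limma adjusted p = 3.68e-05) and 0.61 in WT (SE 0.09, limma adjusted p = 3.1e-05). The other structural beta genes psmb1, psmb3 and psmb4 were higher in both genotypes as well, by 0.40 to 0.53 in KO and by 0.31 to 0.45 in WT.

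The 3 catalytic beta genes passed the test in KO only. For psmb7, the trypsin-like subunit, KO cryoinjury libraries held 61.3, 64.6, 58.6 and 60.1 units against 43.8, 42.8, 46.0 and 43.3 in KO control. WT cryoinjury libraries held 57.3, 60.9, 53.4 and 70 units against 64.0, 50.1, 66.4 and 51.3 in WT control. In KO the groups stood apart, and in WT they overlapped, with WT control libraries 1 and 3 above libraries 2 and 4. The difference was 0.47 in KO (SE 0.10, limma adjusted p = 0.000918) and 0.06 in WT (SE 0.10, limma adjusted p = 0.632). The chymotrypsin-like psmb5 differed by 0.46 in KO (limma adjusted p = 0.00209) and by 0.22 in WT (limma adjusted p = 0.112), and the caspase-like psmb6 by 0.30 in KO (limma adjusted p = 0.00983) and by 0.15 in WT (limma adjusted p = 0.19). The difference between the genotypes' responses did not pass for any of them: it was 0.40 for psmb7 (limma adjusted p = 0.487), 0.24 for psmb5 (limma adjusted p = 0.705) and 0.16 for psmb6 (limma adjusted p = 0.776). The inducible-type psmb10 was called in WT only, at 0.51 (limma adjusted p = 0.0202) against 0.16 in KO (limma adjusted p = 0.465), with a spread of 13.1 to 26.2 units in WT controls and an interaction of -0.35 (limma adjusted p = 0.727). Leaving out WT cryoinjury library 1, WT cryoinjury library 4 or WT control library 1 ended the psmb10 call, with an adjusted p of up to 0.0814.

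**Figure D2:**
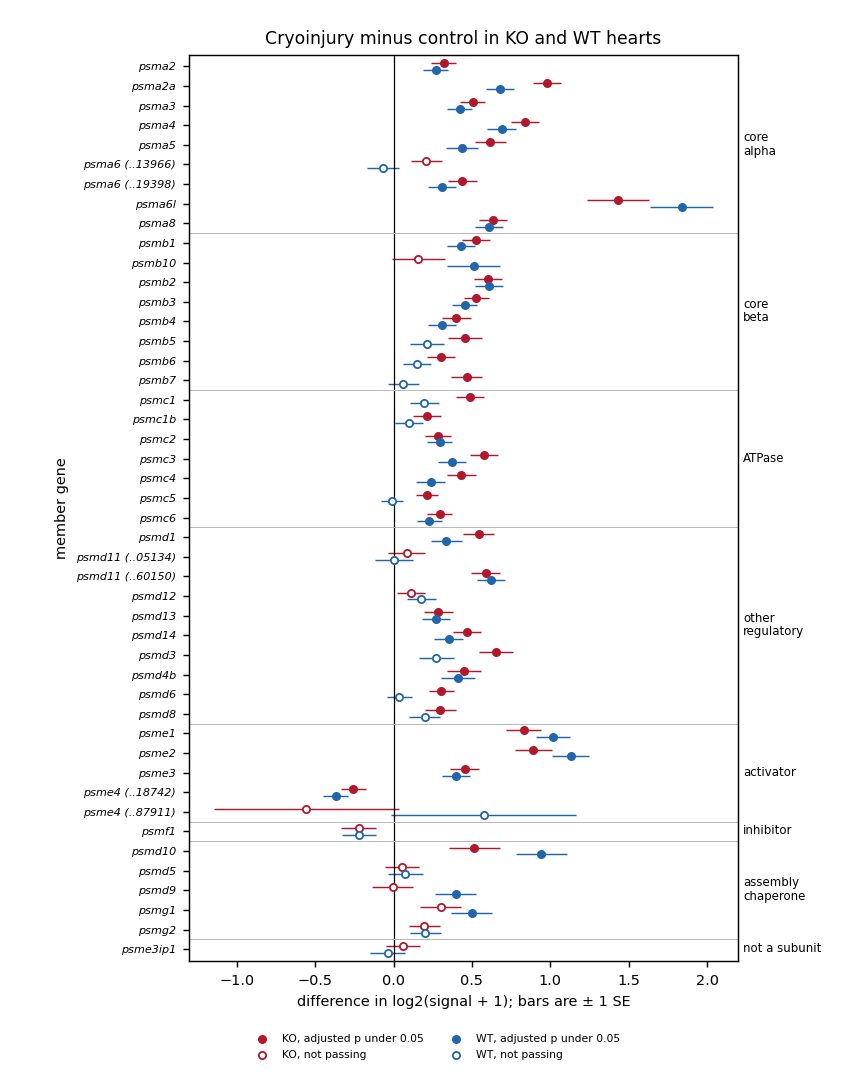
Injured minus control difference of each member on the log2(signal + 1) scale, with bars of ± 1 SE, for KO and WT hearts, ordered by role. Filled points have a limma adjusted p under 0.05, which 34 members passed as higher in KO and 28 in WT, and psme4 (ENSDARG00000018742) is the filled point below 0 in both.

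Median differences were smaller in the regulatory particle than in the core. Across its 17 genes the median was 0.30 in KO and 0.24 in WT, against 0.50 in KO and 0.43 in WT across the 17 core genes; this contrast between the particles was not tested. Of the regulatory genes 15 were higher in KO and 9 in WT, and of the core genes 15 in KO and 13 in WT. Among all genes 25.2% were called higher in KO and 24.2% in WT.

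The ATPase ring, built from the psmc products, unfolds substrates and threads them into the core. All 7 psmc genes were higher in KO, by 0.21 to 0.57, and 4 of 7 in WT (psmc2, psmc3, psmc4 and psmc6). Among all genes 25.2% were called higher in KO and 24.2% in WT. The gene psmc3 read 72.9, 78.9, 81.4 and 73.5 units in KO cryoinjury against 51.8, 49.7, 53.2 and 49.8 in KO control, and 81.0, 71.9, 74.8 and 91.7 units in WT cryoinjury against 66.7, 54.2, 69.4 and 56.2 in WT control. Injured libraries were above controls in both genotypes, and the WT control libraries were split, with 1 and 3 above 2 and 4. Its difference was 0.57 in KO (SE 0.09, limma adjusted p = 6.78e-05) and 0.37 in WT (SE 0.09, limma adjusted p = 0.00303).

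At the other end of the ATPases, psmc5 read 92.3, 97.4, 95.6 and 93.7 units in KO cryoinjury against 85.3, 75.1, 80.6 and 86.3 in KO control. In WT it read 96.9, 88.3, 86.5 and 102 units after cryoinjury against 96.9, 88.0, 97.6 and 93.6 in controls. The KO control libraries were the lowest of the 4 groups, below all WT controls, and the WT groups overlapped. The difference was 0.21 in KO (SE 0.07, limma adjusted p = 0.0229) and -0.01 in WT (SE 0.07, limma adjusted p = 0.924), and the interaction was 0.22 (limma adjusted p = 0.6). The KO call of psmc5 was lost without KO cryoinjury library 2 or without KO control library 2, with an adjusted p of up to 0.0728. The KO call of psmc1b, at 0.21 (limma adjusted p = 0.0491), was lost in 12 of the 16 fits that left out a library, in edgeR (adjusted p = 0.0502) and in DESeq2 (adjusted p = 0.0834). Other calls that leaving out 1 library ended were psma2, psma6 (ENSDARG00000019398), psmc4, psmc6 and psmd13 in WT, where the library was 1 of WT cryoinjury 1, 2 and 4 or WT control 2 and 4, and psmd8 and psmd13 in KO, where it was 1 of KO cryoinjury 2 and 3 or KO control 1 and 2. The highest adjusted p was 0.151 for psmc4. Leaving out KO cryoinjury libraries 1 and 2 together keeps only libraries 3 and 4 in that group. Some calls were then lost, with differences near those of the main fit. In KO these were psmb6, at 0.29 against 0.30 (limma adjusted p = 0.0622), and psmc5, at 0.21 in both fits (limma adjusted p = 0.0849). The KO calls of psmc1b, at 0.26 against 0.21 (limma adjusted p = 0.0606), and psmd8, at 0.27 against 0.30 (limma adjusted p = 0.119), were lost too. The WT call of psmc4 was lost at an unchanged 0.24 (limma adjusted p = 0.0503).

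Among the other regulatory particle genes 8 of 10 were higher in KO, where 25.2% of all genes were, and 5 of 10 in WT, where 24.2% were. The scaffold subunit gene psmd3 read 60.4, 72.0, 61.8 and 67.8 units in KO cryoinjury against 41.6, 43.2, 41.3 and 38.8 in KO control, and 51.2, 53.2, 55.0 and 76.4 units in WT cryoinjury against 43.7, 43.5, 55.3 and 50.4 in WT control. The KO groups stood apart, whereas in WT library 4 was well above the other injured libraries and the groups overlapped. Its difference was 0.65 in KO (SE 0.11, limma adjusted p = 0.000168), the largest of the regulatory particle genes in KO, and 0.27 in WT (SE 0.11, limma adjusted p = 0.0608), with an interaction of 0.38 (limma adjusted p = 0.571). For psmd6, another lid subunit gene, the mean was 66.6 ± 2.51 units in KO cryoinjury, 53.8 ± 3.21 in KO control, 67.1 ± 5.04 in WT cryoinjury and 65.3 ± 4.68 in WT control (SD, n = 4 each). KO control had the lowest mean, and the difference after injury was 0.30 in KO (limma adjusted p = 0.00345) and 0.04 in WT (limma adjusted p = 0.712). The deubiquitinase psmd14, which removes ubiquitin chains from substrates, was higher by 0.47 in KO (limma adjusted p = 0.000336) and by 0.35 in WT (limma adjusted p = 0.00358). The base subunit gene psmd1 was higher by 0.54 in KO (limma adjusted p = 0.000263) and by 0.34 in WT (limma adjusted p = 0.0105). The lid gene psmd12 was called in neither genotype, at 0.11 in KO (limma adjusted p = 0.304) and 0.18 in WT (limma adjusted p = 0.108).

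Some subunits are encoded by more than 1 gene copy. The lid gene psmd11 had a pair of identifiers. The copy ENSDARG00000060150 read 33.9, 34.7, 34.9 and 32.2 units in KO cryoinjury against 20.4, 22.6, 22.3 and 23.7 in KO control, and 37.8, 30.9, 33.2 and 35.9 units in WT cryoinjury against 23.5, 19.8, 23.7 and 21.2 in WT control. It was higher by 0.59 in KO (SE 0.09, limma adjusted p = 2.92e-05) and by 0.62 in WT (SE 0.09, limma adjusted p = 1.5e-05), with no overlap. The copy ENSDARG00000005134 averaged 48.0 ± 1.22 units in KO cryoinjury, 45.3 ± 4.07 in KO control, 49.1 ± 3.93 in WT cryoinjury and 49.6 ± 10.3 in WT control (SD, n = 4 each). Its injured and control groups overlapped in both genotypes, at 0.08 in KO (limma adjusted p = 0.582) and 0.00 in WT (limma adjusted p = 0.978).

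The ratio between copies was compared within each library, for 7 pairs chosen after the values were seen. It was taken as a difference of log2(signal + 1), called the log2 ratio here. The added 1 understates ratios to low copies such as psma6l. For psmd11 the log2 ratio of ENSDARG00000005134 to ENSDARG00000060150 differed after injury by -0.50 in KO, at 0.49 ± 0.033 against 0.99 ± 0.20, and by -0.62 in WT, at 0.50 ± 0.13 against 1.12 ± 0.18 (SD, n = 4 each). The ratio of psma2 to psma2a differed by -0.66 in KO, at 0.04 ± 0.12 against 0.70 ± 0.081, and by -0.41 in WT, at 0.11 ± 0.11 against 0.52 ± 0.17 (SD, n = 4 each). The ratio of psma6 (ENSDARG00000013966) to psma6l differed by -1.22 in KO and by -1.90 in WT, and that of psma6 (ENSDARG00000019398) to psma6l by -0.99 in KO and by -1.53 in WT. In these 4 pairs the injured and control libraries did not overlap in either genotype, and a two-sided exact permutation test gave its smallest possible p of 0.0286, or 0.05 after Benjamini-Hochberg adjustment over the 14 tests, which is not under the threshold. In the other 3 pairs the groups overlapped: for psmc1 to psmc1b the ratio differed by 0.27 in KO (exact permutation p = 0.0857) and by 0.10 in WT (exact permutation p = 0.171), and the psma6 and psme4 pairs gave exact permutation p-values of 0.0571 to 0.714. The ratios among the psma6 identifiers and psma6l share genes, so each of them follows from the others. Each ratio change also restates the injury differences of the copies in its pair. The 14 tests are therefore not separate results, and ratios of other gene pairs were not computed. The pairs were matched by symbol only, and reads that fit both copies could have been divided between them in the counting.

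**Figure D3:**
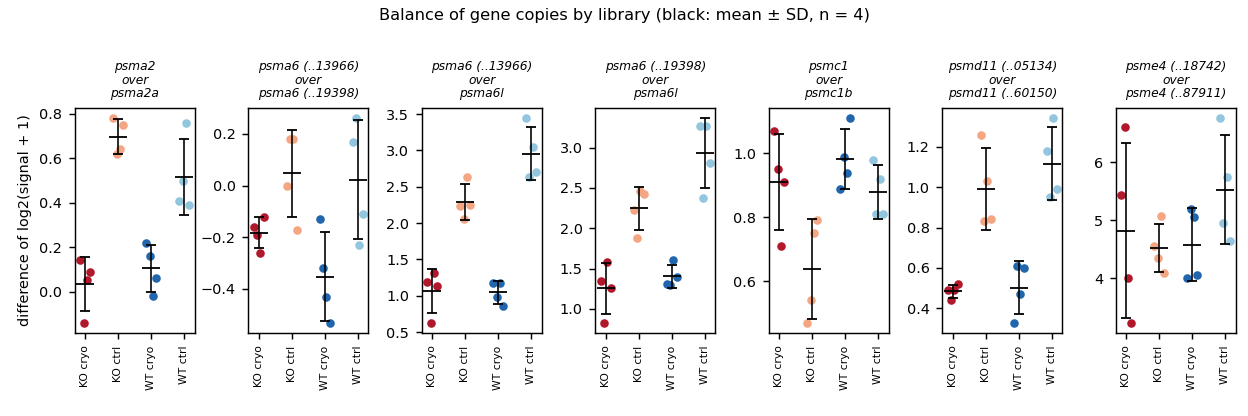
Log2 ratio between the copies of a subunit gene in each library, by group, with the points as libraries and black lines for the mean ± SD over 4 libraries. For the psma2, psmd11 and psma6l pairs the injured libraries lie below the controls in both genotypes, with mean differences of -1.90 to -0.41, whereas the other pairs overlap.

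The alternative activators showed both directions. The interferon-inducible pair psme1 and psme2, whose products form the 11S cap, had some of the largest changes. For psme1 KO cryoinjury libraries held 73.8, 90.8, 81.4 and 66.1 units against 45.5, 46.6, 41.2 and 39.8 in KO control, and WT cryoinjury libraries 95.5, 83.8, 72.0 and 88.6 units against 37.0, 49.6, 37.5 and 42.0 in WT control. No injured library overlapped a control, and the difference was 0.83 in KO (SE 0.11, limma adjusted p = 1.49e-05) and 1.02 in WT (SE 0.11, limma adjusted p = 1.47e-06). For psme2 the means were 75.4 ± 11.7 units in KO cryoinjury, 40.0 ± 5.0 in KO control, 79.3 ± 11.3 in WT cryoinjury and 35.5 ± 1.62 in WT control (SD, n = 4 each). The difference was 0.89 in KO (limma adjusted p = 9.49e-06) and 1.13 in WT (limma adjusted p = 6.63e-07). The nuclear activator psme3 was higher by 0.45 in KO (SE 0.09, limma adjusted p = 0.00031) and by 0.40 in WT (SE 0.09, limma adjusted p = 0.000972), and its values were 31.6, 31.7, 30.5 and 34.2 units in KO cryoinjury, 21.5, 20.7, 25.2 and 25.3 in KO control, 34.8, 36.9, 36.0 and 35.1 in WT cryoinjury and 28.3, 28.3, 27.2 and 24.0 in WT control. Injured libraries were above controls within each genotype.

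The activator gene psme4 (ENSDARG00000018742), whose product is known in mammals as PA200, was the single member called lower, in both genotypes. It read 94.9, 97.0, 98.0 and 98.7 units in KO cryoinjury against 122, 124, 110 and 110 in KO control, and 88.8, 101, 90.9 and 84.6 units in WT cryoinjury against 107, 116, 128 and 123 in WT control. All injured libraries lay below all controls, which 18.5% of all genes did in KO and 20.4% in WT, and the difference was -0.26 in KO (SE 0.08, limma adjusted p = 0.00963) and -0.37 in WT (SE 0.08, limma adjusted p = 0.00065). Scaled to library totals alone, the fall was not seen, at -0.02 in KO (limma adjusted p = 0.843) and -0.01 in WT (limma adjusted p = 0.892), a scaling under which the median of all genes was 0.20 in KO and 0.30 in WT. With KO cryoinjury libraries 1 and 2 left out, the KO call was also lost, at -0.24 (limma adjusted p = 0.0624). The other psme4 identifier, ENSDARG00000087911, was listed at 0 to 9.58 units, with 0 in KO cryoinjury library 2 and WT control library 1, and was called in neither genotype. The inhibitor gene psmf1, known as PI31 in mammals, averaged 16.6 ± 1.76 units in KO cryoinjury, 19.6 ± 2.74 in KO control, 14.3 ± 1.72 in WT cryoinjury and 16.8 ± 1.21 in WT control (SD, n = 4 each), with overlapping groups and a difference of -0.22 in KO (limma adjusted p = 0.12) and in WT (limma adjusted p = 0.125).

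**Figure D4:**
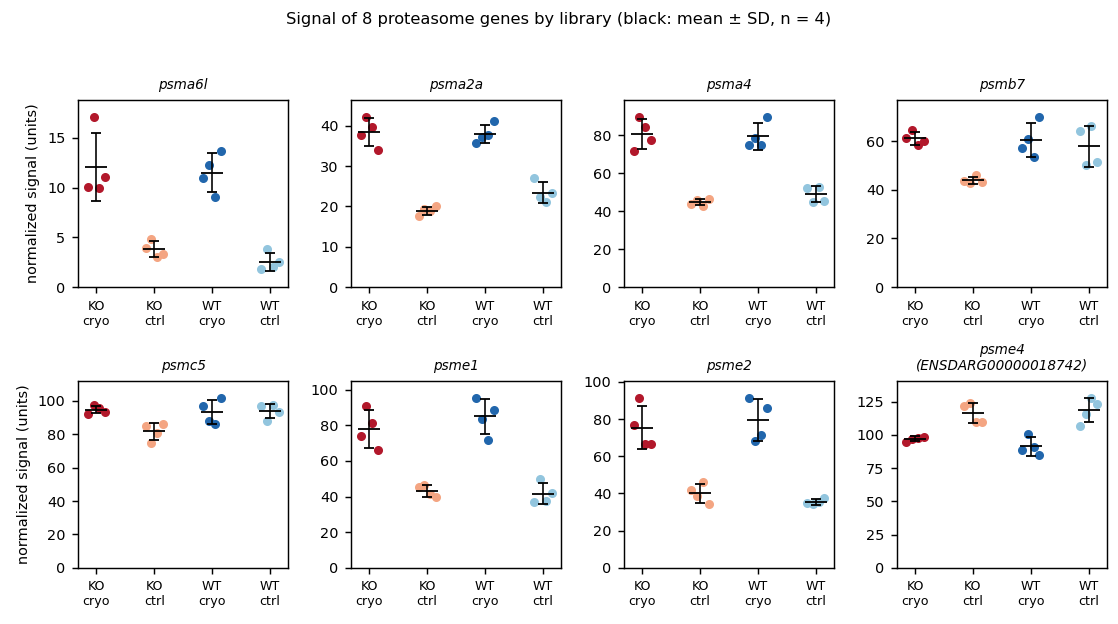
Normalized signal of 8 members in each library, by group, with black lines for the mean ± SD over 4 libraries. In psma6l, psma2a, psma4, psme1 and psme2 the injured libraries lie above the controls in both genotypes, psmb7 and psmc5 separate in KO only, and psme4 (ENSDARG00000018742) lies lower after injury.

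Of the assembly chaperones 1 of 5 was higher in KO, where 25.2% of all genes were, and 3 of 5 in WT, where 24.2% were. The chaperone psmd10, known in mammals as gankyrin, read 8.08, 8.96, 7.18 and 11.6 units in KO cryoinjury against 6.15, 5.79, 4.42 and 7.45 in KO control, and 11.8, 10.1, 13.0 and 15.3 units in WT cryoinjury against 5.66, 5.67, 6.05 and 6.6 in WT control. The WT groups stood clear of each other and the KO groups overlapped. The difference was 0.52 in KO (SE 0.16, limma adjusted p = 0.0128) and 0.94 in WT (SE 0.16, limma adjusted p = 0.000103), with an interaction of -0.43 (limma adjusted p = 0.651). The KO call was lost without KO cryoinjury library 4 or KO control library 3, with an adjusted p of up to 0.052. The chaperones psmd9 and psmg1 passed in WT only, by 0.40 (limma adjusted p = 0.0163) and 0.50 (limma adjusted p = 0.00512), against -0.01 (limma adjusted p = 0.975) and 0.30 (limma adjusted p = 0.0718) in KO, and their interactions of -0.40 (limma adjusted p = 0.596) and -0.20 (limma adjusted p = 0.819) did not pass. The WT call of psmd9 was lost without WT control library 4 (adjusted p = 0.0664). The chaperones psmd5 and psmg2 were called in neither genotype, and psme3ip1, at 0.06 in KO and -0.04 in WT, did not pass either (limma adjusted p = 0.659 in KO and 0.797 in WT).

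The injury comparisons in KO and in WT contrast different libraries, but for both the spread of each gene was estimated over all 16 libraries. A set of 25 members was higher in both, which was 73.5% of the 34 in KO and 89.3% of the 28 in WT. Of all genes 20% were called higher in both, which was 79.6% of those higher in KO and 82.8% of those higher in WT. The fitted interaction, the signed injury difference in KO minus that in WT, was above 0 for 31 of 46 members, or 67.4%, against 52.6% of all genes. Under scaling to library totals it was above 0 for 16 of 46 members, or 34.8%, against 34.6% of all genes. A value above 0 can also be a smaller fall in KO, as in psme4 (ENSDARG00000018742). No member and none of the 14500 genes passed the interaction test (0.0% called), where 7 members had an unadjusted p under 0.05, 6 of them with an interaction above 0, against 8.21% of all genes. The smallest adjusted p among the members was 0.487, for psmb7. The interaction called 0 members in edgeR's quasi-likelihood test and 0 in DESeq2 as well. A difference between the genotypes' responses was thus not detectable for any single member with 4 libraries per group.

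KO and WT control hearts were compared directly, with the same control libraries that enter the injury comparisons. No member passed the limma test, where 1.48% of all genes were called, and 13 members had an unadjusted p under 0.05, 11 of them lower in KO, against 15.9% of all genes in either direction. DESeq2 called 2 members, against 3.1% of all genes it tested, psmb7 at -0.40 (DESeq2 adjusted p = 0.0272) and psmd6 at -0.28 (DESeq2 adjusted p = 0.0474), and edgeR called 0. The fitted difference was below 0 for 36 of 46 members, which was 78.3%, against 51.8% of all genes, and the median was -0.12 against -0.01 over all genes. Under scaling to library totals 30 of 46 members were below 0, or 65.2%, against 41.5% of all genes, and the median was -0.06 against 0.04 over all genes. Only 3 members of the 36 with at least 100 reads in every library were fitted above 0. All KO control libraries lay below all WT control libraries in 8 members, psma2a, psma6 (ENSDARG00000019398), psmb7, psmc1, psmc3, psmc5, psmd3 and psmd6, where 3.99% of all genes did so, and none lay entirely above, where 3.74% did.

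Among the wild-type controls many members differed between libraries in the same direction. In WT control libraries 1 and 3, 28 and 38 of 46 members were above their WT control mean, against 10 and 19 in libraries 2 and 4. Relative to the WT control mean, the median over all genes was 0.00 to 0.01 in these libraries. The share of all genes above their mean was not computed. Leaving out WT control library 2 gave 3 calls between the control genotypes, against 1.74% of all genes, psmb7 (limma adjusted p = 0.0349), psmc4 (limma adjusted p = 0.0424) and psmd6 (limma adjusted p = 0.0497), all lower in KO. That library had the lowest member median of the WT controls, at -0.09. Leaving it out therefore raises the WT control mean of most members and widens these differences by construction. Over all fits that left out 1 library, 0 to 3 members and 76 to 361 of all genes were called in this comparison. With all libraries psmb7 differed by -0.38 (SE 0.10, limma adjusted p = 0.0661), psmd6 by -0.27 (SE 0.08, limma adjusted p = 0.0843) and psmc1 by -0.28 (SE 0.09, limma adjusted p = 0.118).

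**Figure D5:**
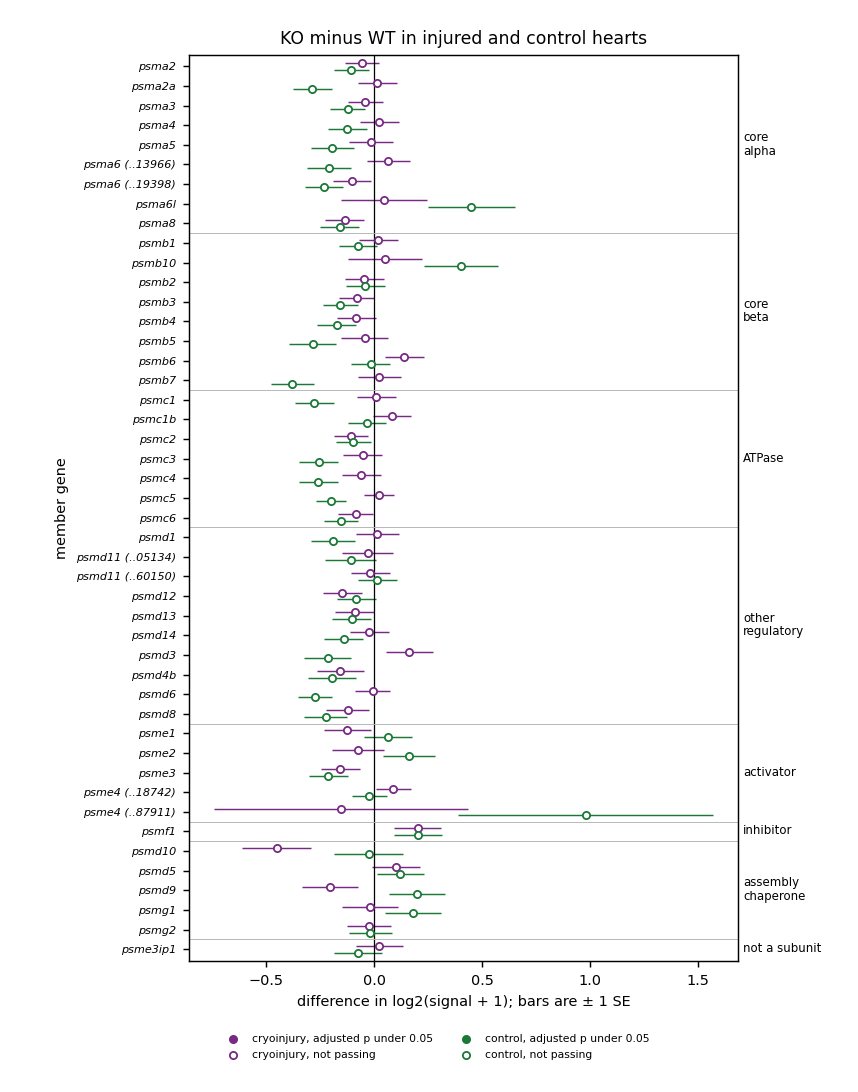
KO minus WT difference of each member on the log2(signal + 1) scale, with bars of ± 1 SE, in injured and in control hearts, ordered by role. No point passed a limma adjusted p of 0.05. In control hearts 36 of 46 fitted differences are below 0, with a median of -0.12, and in injured hearts 29 of 46, with a median of -0.03.

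KO and WT injured hearts were compared in the same way. No member passed the limma test, where 0.441% of all genes were called, and edgeR and DESeq2 called 0 members each. The fitted difference was below 0 for 29 of 46 members, or 63%, against 49.6% of all genes, and the median was -0.03 against 0.00 over all genes. Under scaling to library totals 39 of 46 members were below 0, or 84.8%, against 61.6% of all genes, with a median of -0.09 against -0.06. Only 1 member, psmd10, had an unadjusted p under 0.05, against 12.2% of all genes, at -0.45 (SE 0.16, limma adjusted p = 0.246). All KO cryoinjury libraries lay below all WT cryoinjury libraries for psme3 and psmd9, where 4.01% of all genes did so, and no member lay entirely above, where 3.84% did.

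As a description, the correlation of each of 45 members (psme3ip1 left aside) with the mean of the others had a median Pearson r of 0.86, and 28 were at 0.8 or above. The libraries share their group, depth and cell makeup, and with the group means removed the median was 0.49. Over all libraries, where the injury difference enters each value, the highest were psma4 at 0.98 and psmb2, psmb3 and psma8 at 0.96 each, and the 3 below 0 were psme4 (ENSDARG00000018742) at -0.86, psmf1 at -0.60 and psme4 (ENSDARG00000087911) at -0.08. With the group means removed psma4 stood at 0.76, psmb2 at 0.54, psmb3 at 0.63 and psma8 at 0.58, while psme4 (ENSDARG00000018742) stood at -0.13, psmf1 at -0.05 and psme4 (ENSDARG00000087911) at -0.14. The psmd11 copies, at 0.29 for ENSDARG00000005134 and 0.95 for ENSDARG00000060150 over all libraries, stood at 0.49 for ENSDARG00000005134 and 0.47 for ENSDARG00000060150 with the group means removed.

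The inducible beta subunit genes that the rule drops encode replacements for catalytic subunits under interferon. Of these, psmb9 read 12.5, 14, 7.01 and 5.46 units in KO cryoinjury, 2.40, 1.75, 2.90 and 2.55 in KO control, 4.57, 0, 1.37 and 0 in WT cryoinjury, and 0.531, 1.32, 0 and 0 in WT control. KO cryoinjury libraries were the highest, with libraries 1 and 2 on top. In KO psmb9, psmb12 and psmb13a were higher after injury, by 1.59 (limma adjusted p = 0.00789), 1.67 (limma adjusted p = 0.0295) and 1.47 (limma adjusted p = 0.0248), and in WT none of the 4 was called; their interactions had adjusted p-values of 0.674, 0.722 and 0.687. In control hearts the 4 genes were fitted higher in KO than in WT, by 1.22 to 1.55, and none was called (limma adjusted p = 0.157 to 0.336). All KO control libraries lay above all WT control libraries for psmb9 and psmb13a, as for 3.74% of all genes. In injured hearts psmb9 was higher in KO by 2.41 (limma adjusted p = 0.0272) and psmb13a by 2.52 (limma adjusted p = 0.0375). These calls were lost when KO cryoinjury libraries 1 and 2 were both left out: the injury differences in KO were then 1.09 (limma adjusted p = 0.129) for psmb9, 0.90 (limma adjusted p = 0.335) for psmb12 and 0.97 (limma adjusted p = 0.239) for psmb13a, and the genotype differences 1.91 (limma adjusted p = 0.205) for psmb9 and 2.02 (limma adjusted p = 0.247) for psmb13a. DESeq2 called none of the 3 in KO after injury, with adjusted p-values of 0.224 for psmb9, 0.226 for psmb12 and 0.198 for psmb13a, and edgeR called psmb9 (edgeR adjusted p = 0.0413) but not psmb12 (edgeR adjusted p = 0.0678) or psmb13a (edgeR adjusted p = 0.0622). The genotype calls in injured hearts passed in neither tool, at an edgeR adjusted p of 0.124 for psmb9 and 0.135 for psmb13a, and a DESeq2 adjusted p of 0.382 for psmb9 and 0.30 for psmb13a. Libraries of 1 group differed widely in these genes: psmb8 read 30.8, 34.0, 13.4 and 10.4 units in KO cryoinjury, 12.8, 9.02, 12.3 and 2.94 in KO control, 13.1, 0.189, 4.32 and 0.18 in WT cryoinjury and 3.71, 8.17, 0.772 and 0.281 in WT control, and passed no test. All 4 genes were near 0 in the same WT libraries. They read 0 to 0.189 units in WT cryoinjury libraries 2 and 4 and 0 to 0.281 in WT control library 4. In WT cryoinjury library 1 they read 4.57 to 13.1 units. Their calls are therefore not separate results.

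Partners of the proteasome without a psm name were taken from lists by role. Of 6 further subunits, receptors and assembly factors, 1 was higher and 1 lower in KO, and 1 was higher and 0 lower in WT. Of all genes 25.2% were higher and 22.4% lower in KO, and 24.2% were higher and 21.7% lower in WT. The gene higher in both was usp14, the deubiquitinase that trims chains at the cap, by 0.76 in KO (limma adjusted p = 5.23e-06) and 0.61 in WT (limma adjusted p = 5.02e-05). Its values were 34.9, 37.9, 36.7 and 34.4 units in KO cryoinjury, 17.4, 19.9, 25.3 and 21.2 in KO control, 37.9, 36.3, 35.8 and 39.1 in WT cryoinjury and 23.9, 22.4, 25.9 and 24.3 in WT control, without overlap. Also in this list, the small lid subunit sem1 was lower in KO by 0.21 (limma adjusted p = 0.0419). That call was lost in 8 of 16 fits without a library and in a fit on the KO libraries alone. It was also lost with both of the libraries that stood apart left out, at -0.24 (limma adjusted p = 0.0828), and under scaling to library totals, at 0.02 (limma adjusted p = 0.866). In the same list, the core assembly factor pomp did not pass, at 0.13 in KO (limma adjusted p = 0.148) and 0.07 in WT (limma adjusted p = 0.43). The genes adrm1, ecpas and txnl1 passed in neither genotype.

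Among 11 genes for regulators of proteasome transcription and nuclear import, 3 were higher and 2 lower in KO, and 2 were higher and 2 lower in WT. Of all genes 25.2% were higher and 22.4% lower in KO, and 24.2% were higher and 21.7% lower in WT, so these shares lie near the background. The protease gene ddi2, which in mammals activates the transcription factor Nrf1, was higher by 0.43 in KO (limma adjusted p = 0.00449) and by 0.44 in WT (limma adjusted p = 0.00345). Leaving out both libraries that stood apart ended the KO call, at 0.28 (limma adjusted p = 0.0971). Nrf1 itself has a pair of genes in the list, and neither was called higher. The gene nfe2l1 differed by 0.28 in KO (limma adjusted p = 0.292) and by -0.09 in WT (limma adjusted p = 0.762). The gene nfe2l1b differed by -0.09 in KO (limma adjusted p = 0.559) and was lower by 0.30 in WT (limma adjusted p = 0.0453), a call lost in 14 of 16 fits without a library. The NF-Y subunit gene nfyc was lower in both, by 0.61 in KO (limma adjusted p = 0.00338) and by 0.44 in WT (limma adjusted p = 0.0267), and the WT call was lost under scaling to library totals and without WT cryoinjury library 1, WT cryoinjury library 2 or WT control library 4.

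Of 5 genes for ubiquitin and its activating enzymes, 1 was higher and 0 lower in KO, and 1 was higher and 2 lower in WT. Of all genes 25.2% were higher and 22.4% lower in KO, and 24.2% were higher and 21.7% lower in WT. The polyubiquitin gene ubb read 434, 440, 420 and 396 units in KO cryoinjury, 451, 519, 491 and 418 in KO control, 420, 385, 389 and 461 in WT cryoinjury and 542, 703, 730 and 653 in WT control. The WT controls stood above the other 3 groups. It was lower after injury in WT by 0.66 (SE 0.10, limma adjusted p = 2.52e-05), differed by -0.15 in KO (limma adjusted p = 0.219), and in control hearts was lower in KO by 0.48 (SE 0.10, limma adjusted p = 0.0196), with an interaction of 0.51 (limma adjusted p = 0.384). That genotype call was lost without KO control library 1, WT control library 3 or WT control library 4, under scaling to library totals, and in a fit on the control libraries alone. The ubiquitin-activating enzyme uba1 was higher by 0.30 in KO (limma adjusted p = 0.00328) and by 0.19 in WT (limma adjusted p = 0.045), the WT call being lost in 8 of 16 fits without a library. Of 12 shuttle and unfolding genes 4 were higher and 2 lower in KO, and 3 were higher and 1 lower in WT. These counts stand beside 25.2% of all genes higher and 22.4% lower in KO, and 24.2% higher and 21.7% lower in WT. The cofactor nsfl1c was higher in both, by 0.43 in KO (limma adjusted p = 0.00299) and 0.30 in WT (limma adjusted p = 0.0263), the WT call being lost without WT cryoinjury library 4, WT control library 2 or WT control library 4. The unfolding ATPase vcp passed in KO, at 0.25 (limma adjusted p = 0.0205), against 0.14 in WT (limma adjusted p = 0.174), with an interaction of 0.11 (limma adjusted p = 0.85), and its KO call was lost without KO cryoinjury library 2 or KO control library 2, with an adjusted p of up to 0.0576, and when both libraries that stood apart were left out (limma adjusted p = 0.0696). The proteasome-binding factor gene zfand5b was lower in KO than in WT control hearts by 0.71 (SE 0.14, limma adjusted p = 0.0173), at 102 ± 24.7 against 164 ± 15 units (SD, n = 4 each). That call was lost without KO control library 1, KO control library 2 or WT control library 1, and in a fit on the control libraries alone.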

How the data were processed

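Expression was measured by RNA sequencing in 16 zebrafish heart libraries, 4 per group. Groups and replicate numbers were read from the sample titles, and the labels call the libraries biological replicates. Genome build Zv9 and the tools RSEM 1.2.3, CASAVA 1.8.2 and cutadapt appear in the submitters' processing notes, without role or order. The deposited table, made by the authors, holds a normalized signal for 14500 genes; how it was scaled is not stated in the labels. All values were whole multiples of 1 step per library (100% within 0.01 read), so a read was worth 0.06 to 0.1961 units and reads were recovered by division. Low genes had been left out: the 4th highest value of every gene was at least 1.76 units.

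Symbols came from a table of Ensembl gene names, which matched 11702 of 14500 identifiers. List names with no match were also looked up without a final letter. The main test was limma 3.58.1 (R 4.3.3) with an intensity trend on log2(signal + 1), all 16 libraries and 4 group means (12 residual and 5.12 prior degrees of freedom), Benjamini-Hochberg over all genes, at an adjusted p of 0.05. The scripts were tested on simulated data. Alternatives were edgeR 4.0.16 and DESeq2 1.42.0 on the recovered reads, limma voom, other scalings, pseudocounts of 0.5 and 10, a filter of 10 units in 4 libraries, a threshold of 0.01, a fit on the 8 compared libraries, a replicate block, no KO cryoinjury libraries 1 and 2, and leaving out each library. Deviations from group means of same-numbered libraries correlated at -0.054 to 0.189. Libraries with different numbers were not compared in this way, so whether the numbers pair libraries was not settled. Replicates of a group differed by more than counting noise (chi-square per degree of freedom 6.7 to 18.8).

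Members named by rule had the largest or smallest injury change in their class or led a comparison (20 members). Most of them are given with all library values, others with mean and SD, with differences or by their call only. Genes outside the rule are named for their role. Members and lists were chosen with earlier results of these data known, so they are described by counts and medians without a test of the list.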

Additional observations from a re-analysis of the deposited data

Results flagged for a closer look

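In 3 of 80 groups of 4 libraries examined, over the 20 members named by rule, 1 library lay far from the other libraries of its group; chance flags about 1 in 20 groups. The alpha gene psma6l had 17.1 units in KO cryoinjury library 2, against 10 to 11.1 units in the other KO cryoinjury libraries. The regulatory gene psmd11 (ENSDARG00000005134) had 54.9 units in WT cryoinjury library 4, against 46.3 to 47.7 units in the others. The regulatory gene psmd3 had 76.4 units in WT cryoinjury library 4, against 51.2 to 55.0 units in the others. WT cryoinjury library 4 was the deepest library, at 14831664 reads, and the part of depth in these values was not tested.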

How the results depend on the processing

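Counts of members called, in either direction, ranged over the alternatives other than leaving out a library from 30 to 40 for injury in KO (35 as reported) and from 21 to 43 for injury in WT (29 as reported), the lowest at a threshold of 0.01 in WT and the highest with library totals. Over all genes, these alternatives called 4980 to 6956 for injury in KO and 4984 to 7746 for injury in WT, where the filter left 8975 of 14500 genes. Leaving out each library gave 31 to 36 members in KO and 24 to 30 in WT, with medians of 0.40 to 0.45 in KO and 0.24 to 0.36 in WT. Of all genes, 6115 to 6995 were then called in KO and 6009 to 6679 in WT. Of the members called higher, 28 of 34 in KO and 20 of 28 in WT were called under every alternative that tested them, the threshold of 0.01 included. Medians moved to 0.67 in KO and 0.66 in WT with library totals and to 0.34 in KO and 0.24 in WT with a pseudocount of 10, and to 0.24 in WT without WT cryoinjury library 4. Library totals shift the median of all genes by 0.20 in KO and 0.30 in WT, and 77.6% of calls were then higher in KO (52.9% as reported) and 84.2% in WT (52.7% as reported). In WT, library totals also turned psma6 (ENSDARG00000013966) to 0.28, psmc5 to 0.34, psme3ip1 to 0.30 and psmf1 to 0.11; the cause was not tested beyond the shift of all genes. Between control genotypes, DESeq2 called 2 members and leaving out a library 0 to 3, with medians of -0.16 to -0.09 without a library and -0.12 to -0.06 under the other alternatives. Between injured genotypes 0 members were called throughout, with medians of -0.06 to 0.01 without a library and -0.09 to -0.02 under the others. For the interaction 0 were called, with medians of 0.05 to 0.11 without a library and -0.04 with library totals (0.08 as reported). Differences near 0 changed sign in WT: psmd11 (ENSDARG00000005134) was -0.01 in edgeR and in DESeq2, and over the fits without a library it ranged from -0.10 to 0.11, psmc5 from -0.05 to 0.03 and psmb7 from -0.01 to 0.13.

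The replicate number as a block gave 34 members for injury in KO and 29 in WT, 0 for both genotype comparisons and 0 for the interaction. Whether the numbers pair the libraries was not settled. Over all genes, the genotype calls in control hearts (215) became 406 in DESeq2, 73 with 8 libraries, 46 at a threshold of 0.01 and 76 to 361 without a library. Those in injured hearts (64) became 100 with library totals, 215 in DESeq2, 25 with 8 libraries, 97 with the block, 13 at a threshold of 0.01, 5 without KO cryoinjury libraries 1 and 2, and 19 to 84 without a library. The interaction (0) became 20 in DESeq2, 1 with the block and 0 to 3 without a library.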
